A study of Mus musculus with 28 samples.

Results

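The collagen genes other than type IV were described in mIMCD-3 cells, an epithelial line of mouse kidney that derives from inner medullary collecting duct. They were found as all rows of the expression matrices whose symbol consists of Col, a type number, the letter a and a chain number, without the 6 type IV genes. This gave 38 of 45706 gene identifiers. RNA sequencing had been done on 28 libraries in 7 groups of 4. Polyclonal WT is the parental population, monoclonal WT5 was grown from a single sorted cell of it, and subclones 1 to 5 were each grown from a single sorted cell of WT5. All groups are wild type, none was edited or given an agent, and RNA was taken from all of them 4 days after the cultures had become confluent. WT5 and each subclone are 1 clone each and polyclonal WT is a mixed population, so differences between groups hold for these cultures only. Read type, time of sequencing and the deposited tables go with some of these groups, so the clone is not all that differs. The labels do not say whether the 4 libraries of a group came from separate cultures, so p-values measure only the spread between these libraries.

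Collagens are extracellular matrix proteins built from 3 chains wound into a triple helix. Fibril-forming collagens (types I, II, III, V, XI, XXIV and XXVII) make the rope-like fibres of connective tissue, and FACIT collagens such as types XII and XVI bind to the surface of such fibrils. Type VI forms beaded filaments, type VII anchors epithelia to the stroma, type VIII forms networks, and the multiplexins XV and XVIII sit in basement membranes. Type XVIII carries heparan sulfate and releases the fragment endostatin from its C-terminal end. In the kidney most fibrillar collagen is made by interstitial fibroblasts, while tubular epithelium contributes to its own basement membrane.

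Of the 38 members, 11 are fibril-forming, 9 FACIT, 6 of type VI, 4 transmembrane, 3 network-forming, 2 multiplexin, 1 anchoring fibril and 2 of other kinds. Promoter sequence from RefSeq (GRCm38.p6) was at hand for 30 members, and Col12a1, Col14a1, Col1a1, Col22a1, Col26a1, Col2a1, Col5a2 and Col9a3 had no entry. Shown are the stretches before the start of 5 members on which the results turn: Col18a1, which carries most of the collagen signal, the neighbours Col6a1 and Col6a2, which lie on the same strand of chromosome 10 and differ among the subclones, and Col11a1 and Col8a2, which were highest in polyclonal WT. Each runs from 5′ to 3′ on the gene's own strand, from 250 bases before a RefSeq start up to that start or to the first exon that GENCODE M21 places there. Capitals mark the GC box (GGGCGG), the TATA box (TATAAA) and the CCAAT box (CCAAT) on either strand, where GC boxes that overlap run together.
Col18a1, chr10:77166549-77166780, minus strand: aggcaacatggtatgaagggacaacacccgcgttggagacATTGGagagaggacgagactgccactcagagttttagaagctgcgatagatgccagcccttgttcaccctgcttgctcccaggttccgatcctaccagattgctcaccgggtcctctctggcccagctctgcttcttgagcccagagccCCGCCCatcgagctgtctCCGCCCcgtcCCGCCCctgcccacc
Col6a1, chr10:76726169-76726294, minus strand: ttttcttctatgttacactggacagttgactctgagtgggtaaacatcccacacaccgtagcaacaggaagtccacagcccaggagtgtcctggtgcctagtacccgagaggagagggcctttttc
Col6a2, chr10:76623631-76623880, minus strand: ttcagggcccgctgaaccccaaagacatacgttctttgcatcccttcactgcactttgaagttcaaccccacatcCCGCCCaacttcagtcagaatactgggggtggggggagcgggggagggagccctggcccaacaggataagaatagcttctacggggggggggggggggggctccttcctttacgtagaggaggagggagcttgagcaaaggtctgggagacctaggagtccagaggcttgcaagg
Col11a1, chr3:114030290-114030539, plus strand: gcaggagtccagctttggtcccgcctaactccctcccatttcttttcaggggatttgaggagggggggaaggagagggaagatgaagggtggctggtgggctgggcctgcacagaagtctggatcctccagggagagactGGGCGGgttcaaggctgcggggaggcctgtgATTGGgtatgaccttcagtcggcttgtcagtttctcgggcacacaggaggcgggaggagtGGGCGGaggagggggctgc
Col8a2, chr4:126286544-126286792, plus strand: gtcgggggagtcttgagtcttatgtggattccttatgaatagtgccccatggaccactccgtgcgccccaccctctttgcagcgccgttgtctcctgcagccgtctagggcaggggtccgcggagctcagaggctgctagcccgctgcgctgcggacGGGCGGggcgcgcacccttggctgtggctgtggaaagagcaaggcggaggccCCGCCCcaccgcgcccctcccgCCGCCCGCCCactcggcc

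The printed stretches hold 3 GC boxes for Col18a1, 1 for Col6a2, 2 for Col11a1 and 4 for Col8a2. The 126 bases of Col6a1 hold none of the motifs searched, and a TATA box is in none of the printed stretches. Over full windows of 250 bases, a GC box was in 19 of the 33 member promoters against 32.74% of all 32851 promoters. A TATA box was in 5 of 33 (12.37% of all) and a CCAAT box in 10 of 33 (33.85% of all). Col18a1 has another RefSeq start further downstream, which lies next to an annotated exon, and Col6a2 has 2 RefSeq starts as well, of which the upstream one is printed. TPM sums the starts of a gene.

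Levels are given as TPM, the share of a library's transcripts that a gene takes once its length is allowed for, so that levels can be compared between genes. Most members were at or near 0. Listed at 0 in all 28 libraries were 6 members, Col13a1, Col19a1, Col28a1, Col6a3, Col6a5 and Col9a1. With them, 24 members never reached a group mean of 0.1 TPM, while 9 members had their highest group mean between 0.1 and 1 TPM, and 5 members (Col18a1, Col16a1, Col11a1, Col8a2 and Col6a1) reached 1 TPM in at least 1 group. Above 0 in every library were 7 members. The depth behind these values is unknown, so members at or near 0 may be below what these libraries could detect.

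**Figure D1:**
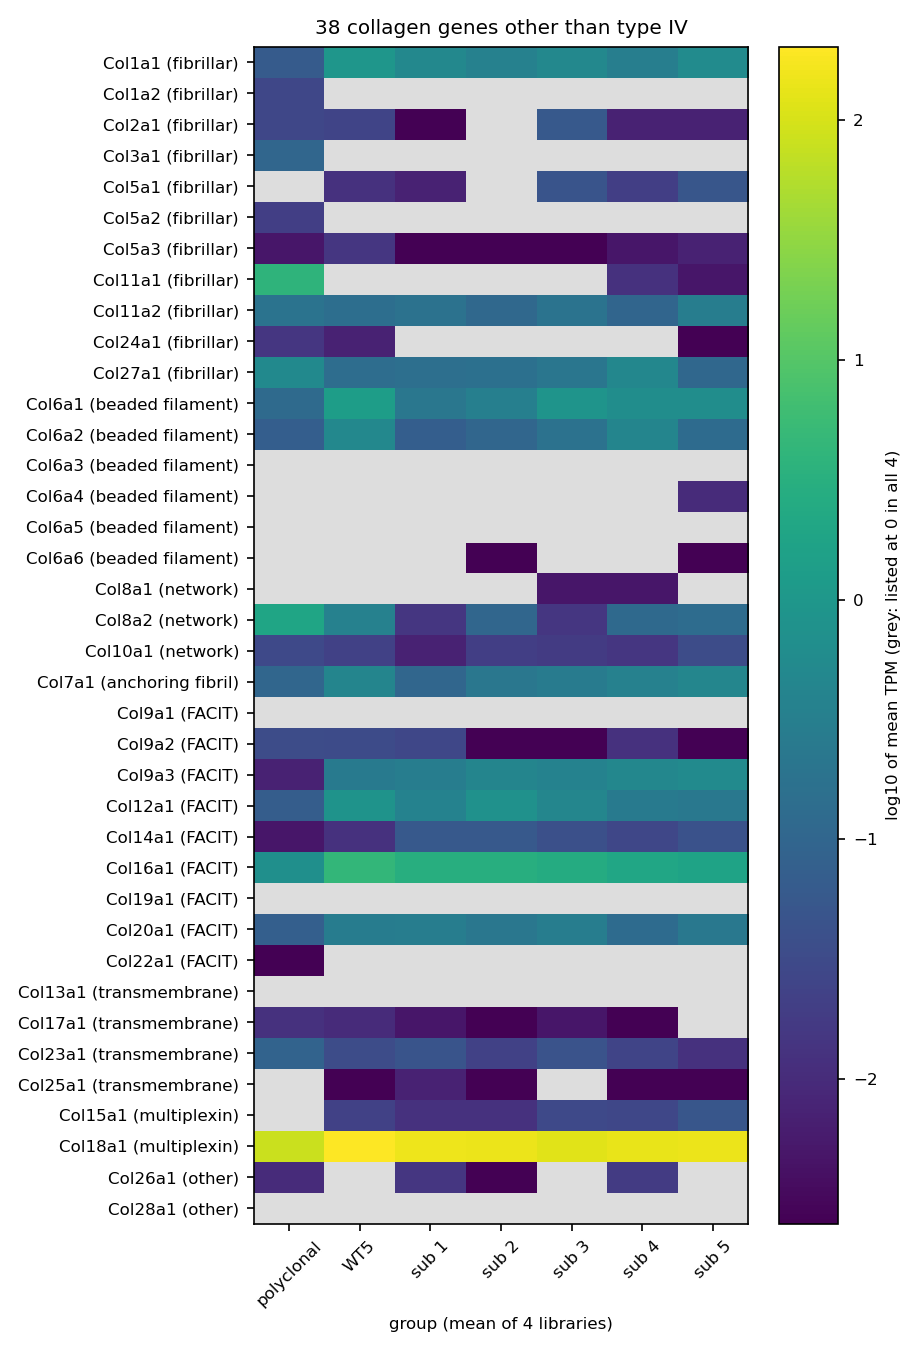
Mean TPM of the 4 libraries of each group (colour, log10 scale) for the 38 members, ordered by class, with grey for members listed at 0 in all 4 libraries. Col18a1 is the brightest row in all 7 groups, and Col11a1 is bright only in polyclonal WT among the groups.

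Col18a1 (ENSMUSG00000001435, chr10:77052178-77166548) made up 90.5% to 97.1% of the summed member TPM of a library. Its level was 72.52, 80.21, 88.63 and 79.17 TPM in polyclonal WT and 197.57, 199.82, 213.15 and 196.97 TPM in WT5, with no overlap between the groups. Means were 80.1 ± 6.61 TPM in polyclonal WT against 202 ± 7.61 TPM in WT5 (SD, n = 4). The subclones lay in between, at 136.08 to 161.19 TPM in subclone 1 and with means of 142 ± 19.5, 121 ± 17.4, 136 ± 4.71 and 142 ± 16.7 TPM in subclones 2 to 5 (SD, n = 4). Every subclone library was below every WT5 library and above every polyclonal library. Among the subclones the libraries overlapped, from 98.56 TPM in subclone 3 to 165.76 TPM in subclone 2. Genes annotated on the other strand, Slc19a1 and Gm7775, overlap Col18a1, and whether reads were counted by strand is not given in the sources used here.

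In polyclonal WT the rest of the members summed to 7.02 to 9.14 TPM, in WT5 to 9.04 to 10.48 TPM, and in the subclones to means between 5.34 and 6.22 TPM. The highest of these sums, 10.99 TPM, was in a single library of subclone 3, replicate 4, where Col16a1 alone was at 6.85 TPM. Col16a1 was the member with the highest mean after Col18a1 in WT5 and in each subclone, and Col11a1 was so in polyclonal WT.

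**Figure D2:**
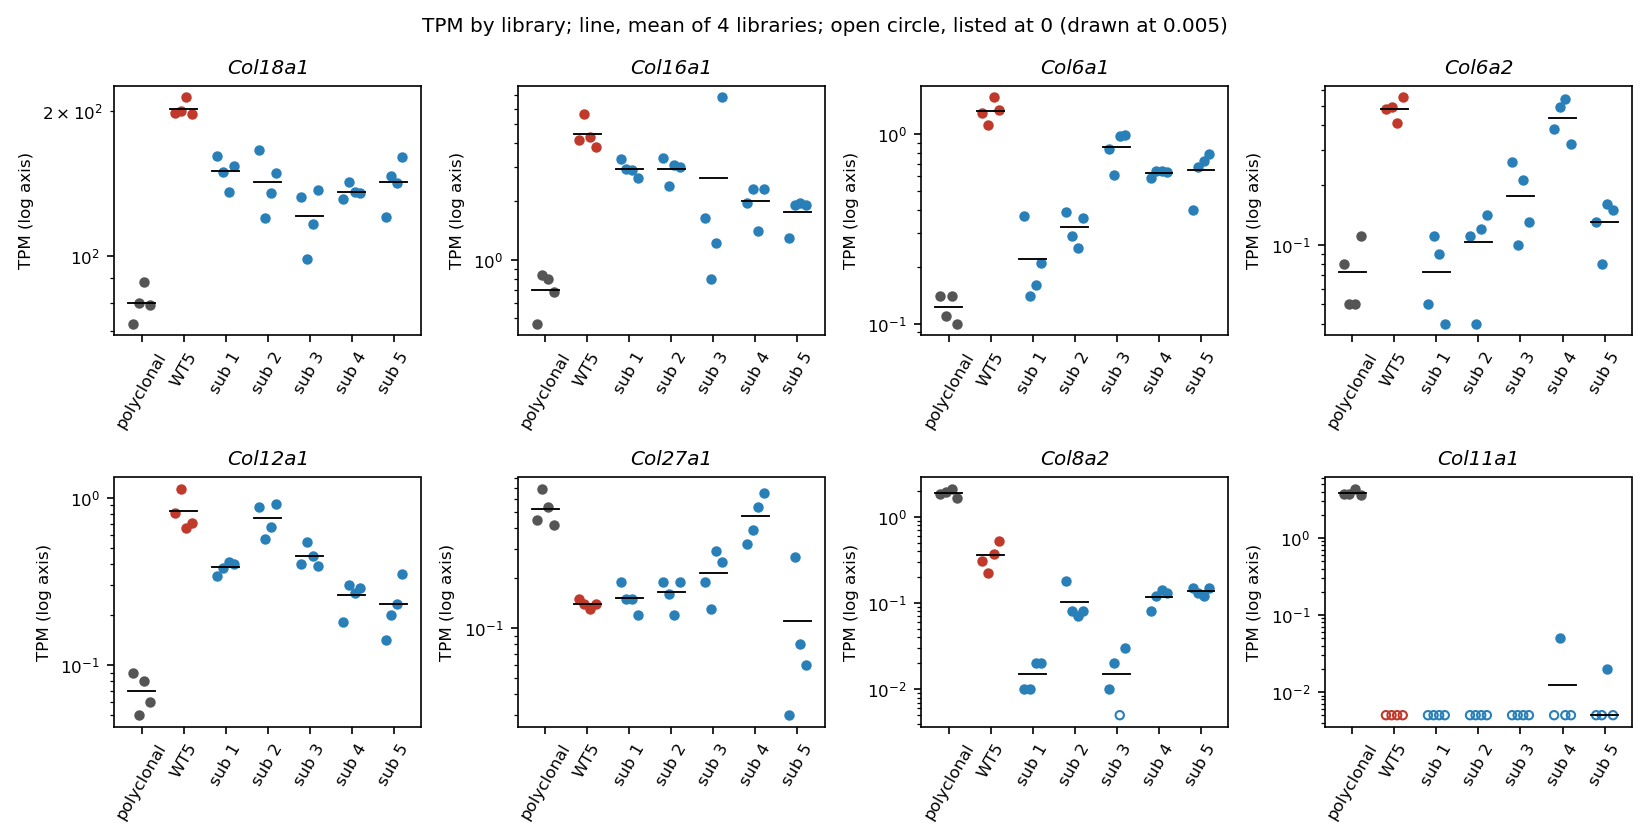
TPM of 8 members in each of the 28 libraries (points, log axis) with the mean of each group (line), where open circles stand for libraries listed at 0. Col18a1, Col16a1, Col6a1, Col6a2 and Col12a1 are lowest in polyclonal WT or level there with the lowest subclone, whereas Col8a2 and Col11a1 are highest in polyclonal WT.

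The comparison of WT5 with polyclonal WT asks how far a clone grown from 1 cell differs from the population it came from. Relative to polyclonal WT, 5 members rose in WT5 (Col12a1, Col6a1, Col6a2, Col16a1 and Col18a1) and 2 fell (Col8a2 and Col27a1). The test was limma on log2(TPM) minus the median of each library, over the 13723 genes above 0 in all 8 libraries, with a call at a Benjamini-Hochberg adjusted p below 0.01 and a centred log2 difference above 1 in size. Of the 38 members 8 could be tested in this way, and 23.2% of all genes tested passed the same thresholds, 11.3% higher and 12.0% lower in WT5. The median difference of the 8 members was 1.72, against -0.05 over all genes tested. By the threshold on z-scores that the study's methods use, at which a difference of 1 stands for about 8.56-fold, Col12a1 (1.06) and Col6a1 (1.03) passed, and 5.43% of all genes did. Without polyclonal replicate 2, none of the 8 passed the z-score threshold in limma, although 7 of them had an unadjusted p below 0.05 with all libraries. Polyclonal libraries had been read with single-end reads and WT5 libraries with longer paired-end reads, and the paper's methods place their sequencing at different times. Read type, time of sequencing and clone therefore cannot be told apart. In RNA from whole cultures, fewer cells that express a gene and less of its RNA per cell cannot be told apart either.

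The FACIT member Col12a1 (ENSMUSG00000032332, chr9:79598991-79718831) was at 0.09, 0.05, 0.08 and 0.06 TPM in polyclonal WT and at 0.81, 1.13, 0.66 and 0.71 TPM in WT5. The centred log2 difference was 3.28 (SE 0.23, adjusted p = 6.295e-06). Every WT5 library was above every polyclonal library. Col16a1 (ENSMUSG00000040690, chr4:130047840-130099283), a FACIT-like collagen found at cell to matrix contacts, was at 0.47, 0.84, 0.8 and 0.68 TPM against 4.13, 5.61, 4.26 and 3.81 TPM. It rose by 2.40 on the centred log2 scale (SE 0.20, adjusted p = 1.719e-05), and the groups did not overlap.

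Type VI collagen is assembled from an alpha-1, an alpha-2 and another long chain, which is alpha-3 or one of its relatives. Col6a1 (ENSMUSG00000001119, chr10:76708792-76726168) was at 0.14, 0.11, 0.14 and 0.1 TPM in polyclonal WT and at 1.29, 1.12, 1.57 and 1.34 TPM in WT5, a difference of 3.16 (SE 0.14, adjusted p = 5.472e-07). Col6a2 (ENSMUSG00000020241, chr10:76595762-76623630) was at 0.08, 0.05, 0.05 and 0.11 TPM against 0.48, 0.49, 0.41 and 0.55 TPM, a difference of 2.52 (SE 0.27, adjusted p = 6.918e-05). For both genes all WT5 libraries lay above all polyclonal libraries. The genes for that long chain stayed at or near 0. Col6a3 and Col6a5 were listed at 0 in every library, Col6a4 was above 0 in 2 libraries of subclone 5 (0.03 and 0.01 TPM), and Col6a6 in 1 library each of subclones 2 and 5 (0.01 TPM in both). Col18a1 passed too, with a difference of 1.05 (SE 0.06, adjusted p = 1.687e-06). That call stood just past the size threshold and was lost when predicted genes and pseudogenes were left out (0.997).

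The network-forming Col8a2 (ENSMUSG00000056174, chr4:126286793-126314330), a chain best known from the cornea and from vessel walls, went the other way. It was at 1.85, 1.94, 2.11 and 1.65 TPM in polyclonal WT and at 0.31, 0.22, 0.37 and 0.53 TPM in WT5, a difference of -2.76 (SE 0.25, adjusted p = 2.596e-05). Its partner gene Col8a1 was listed at 0 in all libraries of both groups. The fibril-forming Col27a1 (ENSMUSG00000045672, chr4:63214004-63334991), mainly known from cartilage, was at 0.45, 0.69, 0.54 and 0.42 TPM against 0.15, 0.14, 0.13 and 0.14 TPM, a difference of -2.17 (SE 0.16, adjusted p = 7.977e-06). No WT5 library reached the lowest polyclonal library for either gene. The 8th member tested, Col11a2, did not pass, with a difference of 0.003 (95% interval -1.94 to 1.95). A single polyclonal library stood at 0.56 TPM, against 0.06 TPM in each of the other 3.

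**Figure D3:**
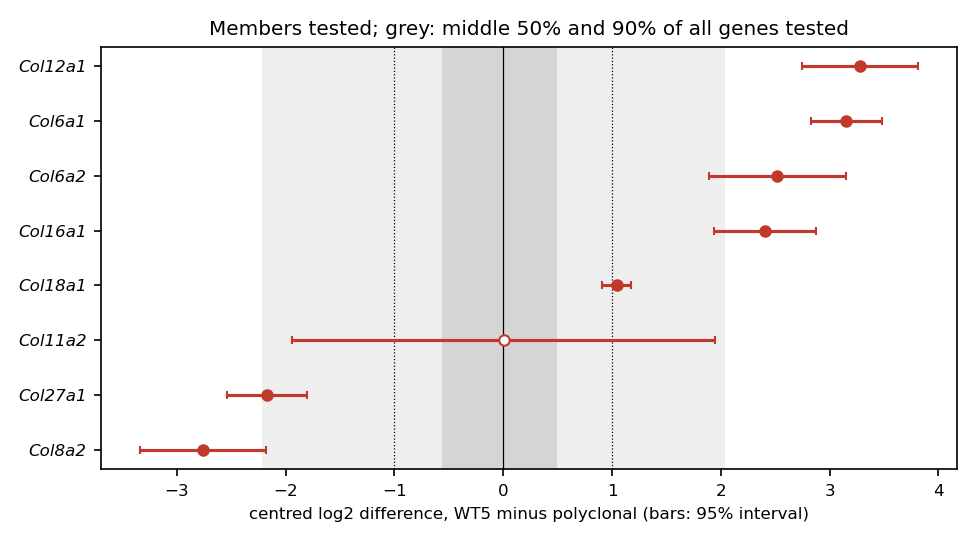
Centred log2 difference of WT5 minus polyclonal WT for the 8 members tested, with 95% intervals from limma, filled where the thresholds were passed. The grey bands hold the middle 50% and 90% of all 13723 genes (-2.21 to 2.03 for the wider band), and Col12a1, Col6a1, Col6a2, Col16a1 and Col8a2 lie outside it.

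Col11a1 (ENSMUSG00000027966, chr3:114030540-114220718), a chain of the type XI fibrils that form the core of cartilage fibrils, was seen almost only in polyclonal WT. It was at 3.69, 3.68, 4.34 and 3.59 TPM in polyclonal WT and listed at 0 in all 4 libraries of WT5. In the subclones it was listed at 0 in 18 of 20 libraries, and the other two held 0.05 TPM (subclone 4) and 0.02 TPM (subclone 5). Over all genes, 18681 to 19272 were above 0 in a polyclonal library, 16318 to 16536 in a WT5 library and 16270 to 17004 in a subclone library. The share of all genes with the pattern of Col11a1 was not counted. A gene with zeros could not enter the main test. When all genes above 0 in any library were tested on log2(TPM + 0.1), where 24% of 23738 genes passed, the difference was -5.58 (SE 0.06, adjusted p = 6.168e-10). The size of this difference depends on the added 0.1 and on the centring. By the z-score threshold the same test gave -1.26 and called it as well.

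Other fibrillar members with zeros were also on different sides, and are named here after their values were seen. Col3a1, the chain of type III collagen, was at 0.17, 0.18, 0.02 and 0.04 TPM in polyclonal WT and listed at 0 in each of the other 24 libraries (difference -1.21, adjusted p = 0.009129 in the test without a filter). Part of that size comes from the centring, which in this test also moves members at or near 0 in both groups. Col25a1, listed at 0 in all polyclonal libraries and at most 0.01 TPM in WT5, had a difference of -0.25 (adjusted p = 0.002034) there. Col5a2, which pairs with Col5a1 in type V, was above 0 in 3 polyclonal libraries, at 0.01 to 0.04 TPM, and in no other library. Col1a1 was at 0.04, 0.16, 0.06 and 0 TPM in polyclonal WT and at 0.59, 0.61, 0.57 and 2.06 TPM in WT5 (difference 2.27, adjusted p = 0.003428). Col1a2, the other chain of type I collagen, was above 0 in 2 polyclonal libraries only, at 0.03 and 0.08 TPM, so that the libraries with the most Col1a1 were those where Col1a2 was listed at 0.

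Each subclone was then compared with WT5, the clone it came from, over the 13860 genes above 0 in each of these 24 libraries, which left 12 members. WT5 and the subclones are in separate deposited tables, so what all 5 subclones share against WT5 cannot be told apart from an effect of the tables. The paper also describes weeks of expansion of the subclones before their RNA was isolated, which cannot be told apart either. All 5 comparisons share the same WT5 libraries. In subclone 1, 3 of 12 members fell (3.12% of all genes passed, 1.58% higher and 1.54% lower), Col6a2, Col6a1 and Col12a1. In subclone 2, 2 fell (2.68%, with 1.42% lower), Col6a2 and Col6a1. In subclone 3, 1 fell (3.97%, with 1.56% lower), Col6a2. In subclone 4, Col12a1 and Col16a1 fell and Col27a1 rose (5.32%, with 3.58% higher and 1.75% lower). In subclone 5, 3 fell (3.67%, with 2.05% higher and 1.62% lower), Col6a2, Col12a1 and Col16a1. The median difference of the 12 members lay between -0.68 and -0.45 in the 5 comparisons, where the median over all genes lay between 0.00 and 0.03. By the z-score threshold none of the 12 passed in limma in any of the 5, and from 0.144% to 0.202% of all genes did. Between 5 and 7 of the 12 had an unadjusted p below 0.05 there.

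Col18a1 was lower than WT5 in each subclone, by a centred log2 difference of -0.39 (subclone 1), -0.46 (subclone 2), -0.65 (subclone 3), -0.48 (subclone 4) and -0.41 (subclone 5). Adjusted p-values were from 2.871e-05 to 0.001617, but the differences were below the size threshold. Being shared, this difference cannot be told apart from the separate tables.

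The type VI chains Col6a1 and Col6a2 differed between subclones. Col6a1 was at 0.37, 0.14, 0.16 and 0.21 TPM in subclone 1 and at 0.39, 0.29, 0.25 and 0.36 TPM in subclone 2. It was at 0.84, 0.61, 0.98 and 0.99 TPM in subclone 3, at 0.59, 0.64, 0.64 and 0.63 TPM in subclone 4 and at 0.4, 0.67, 0.72 and 0.79 TPM in subclone 5. All subclone libraries were below the lowest WT5 library, at 1.12 TPM. Against WT5 it fell by 2.66 in subclone 1 (SE 0.29, adjusted p = 0.0004874) and by 2.00 in subclone 2 (SE 0.14, adjusted p = 0.0001021). Differences in subclones 3, 4 and 5 were -0.56, -0.99 and -0.97 and did not pass. From high to low the order of means was WT5, subclone 3, subclone 5, subclone 4, subclone 2, subclone 1 and polyclonal WT, and libraries overlapped between neighbours in that order or met at 1 value, except between WT5 and subclone 3 and between subclone 4 and subclone 2.

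Col6a2 was at 0.05, 0.11, 0.09 and 0.04 TPM in subclone 1, at 0.11, 0.04, 0.12 and 0.14 TPM in subclone 2 and at 0.26, 0.1, 0.21 and 0.13 TPM in subclone 3. It was at 0.38, 0.49, 0.54 and 0.32 TPM in subclone 4 and at 0.13, 0.08, 0.16 and 0.15 TPM in subclone 5. Subclone 4 overlapped with WT5, whereas each library of the other 4 subclones was below all WT5 and all subclone 4 libraries. The differences from WT5 were -2.81 (SE 0.33, adjusted p = 0.00069) in subclone 1, -2.32 (SE 0.36, adjusted p = 0.001984) in subclone 2, -1.46 (SE 0.27, adjusted p = 0.005179) in subclone 3 and -1.83 (SE 0.24, adjusted p = 0.001086) in subclone 5. In subclone 4 it was -0.09 (95% interval -0.50 to 0.32). The call in subclone 3 was lost when any WT5 library or subclone 3 replicate 4 was left out, with adjusted p-values of 0.01193 to 0.01803. By the unequal-variance test the only type VI call that remained was Col6a1 in subclone 2. Adjusted p was then 0.01146 for Col6a1 in subclone 1, and 0.01537, 0.02647, 0.04454 and 0.01586 for Col6a2 in subclones 1, 2, 3 and 5. So Col6a1 and Col6a2, which lie 85162 bases apart, did not have the same order over the subclones.

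Col12a1 was at 0.88, 0.57, 0.67 and 0.92 TPM in subclone 2, which overlapped with WT5. It was at 0.34, 0.38, 0.41 and 0.4 TPM in subclone 1, at 0.4, 0.54, 0.45 and 0.39 TPM in subclone 3, at 0.18, 0.3, 0.27 and 0.29 TPM in subclone 4 and at 0.14, 0.2, 0.23 and 0.35 TPM in subclone 5. Against WT5 the difference was -1.05 in subclone 1 (adjusted p = 0.002518), -1.57 in subclone 4 (adjusted p = 0.0006413) and -1.79 in subclone 5 (adjusted p = 0.001565). It was -0.06 in subclone 2 (95% interval -0.53 to 0.40). The call in subclone 1 stood just past the size threshold and was lost without WT5 replicate 2 (-0.89), without subclone 1 replicate 1 (-0.99) and by the unequal-variance test (adjusted p = 0.02163). Annotation places 4930562D21Rik on the strand opposite to Col12a1.

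Col16a1 was at 1.96, 2.31, 1.41 and 2.31 TPM in subclone 4 and at 1.3, 1.92, 1.95 and 1.92 TPM in subclone 5, below all WT5 libraries. It fell by 1.08 in subclone 4 (SE 0.18, adjusted p = 0.002028) and by 1.23 in subclone 5 (SE 0.13, adjusted p = 0.0004793). The call in subclone 4 was lost without WT5 replicate 2 (-0.97) and without subclone 4 replicate 3 (-0.92). With all 24 libraries in one limma fit, neither call passed (adjusted p = 0.02059 in subclone 4 and 0.01067 in subclone 5). In subclones 1 and 2 Col16a1 was at 2.39 to 3.33 TPM, with differences of -0.55 and -0.54 that did not pass. In subclone 3 the libraries held 1.64, 0.8, 1.22 and 6.85 TPM, so that 1 library lay above and the others below all WT5 libraries.

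Col27a1 was at 0.32, 0.39, 0.54 and 0.65 TPM in subclone 4, higher than in any WT5 library. The difference was 1.80 (SE 0.21, adjusted p = 0.0003135), and the libraries overlapped with those of polyclonal WT. By the unequal-variance test it did not pass (adjusted p = 0.01028). In subclones 1, 2 and 3 it was at 0.12 to 0.29 TPM. In subclone 5 it was at 0.03, 0.27, 0.08 and 0.06 TPM, with 3 libraries below WT5 and 1 above. The microRNA gene Mir455 lies within Col27a1 on the same strand.

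Col8a2 was not tested in the main fit because subclone 3 replicate 3 was listed at 0. It was at 0.01, 0.01, 0.02 and 0.02 TPM in subclone 1, at 0.01, 0.02, 0 and 0.03 TPM in subclone 3, and between 0.07 and 0.18 TPM in subclones 2, 4 and 5. Every subclone library was below the lowest WT5 library (0.22 TPM). On log2(TPM + 0.1) without a filter the differences from WT5 were -1.91 in subclone 1 (adjusted p = 0.0006805, 1.88% of all genes passed) and -1.86 in subclone 3 (adjusted p = 0.001046, 2.41% passed). It did not pass there in subclone 2 (-1.11, adjusted p = 0.01131), subclone 4 (-0.95, adjusted p = 0.009915, below the size threshold) or subclone 5 (-0.80, adjusted p = 0.02817), where 1.66%, 3.33% and 2.22% of all genes did.

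**Figure D4:**
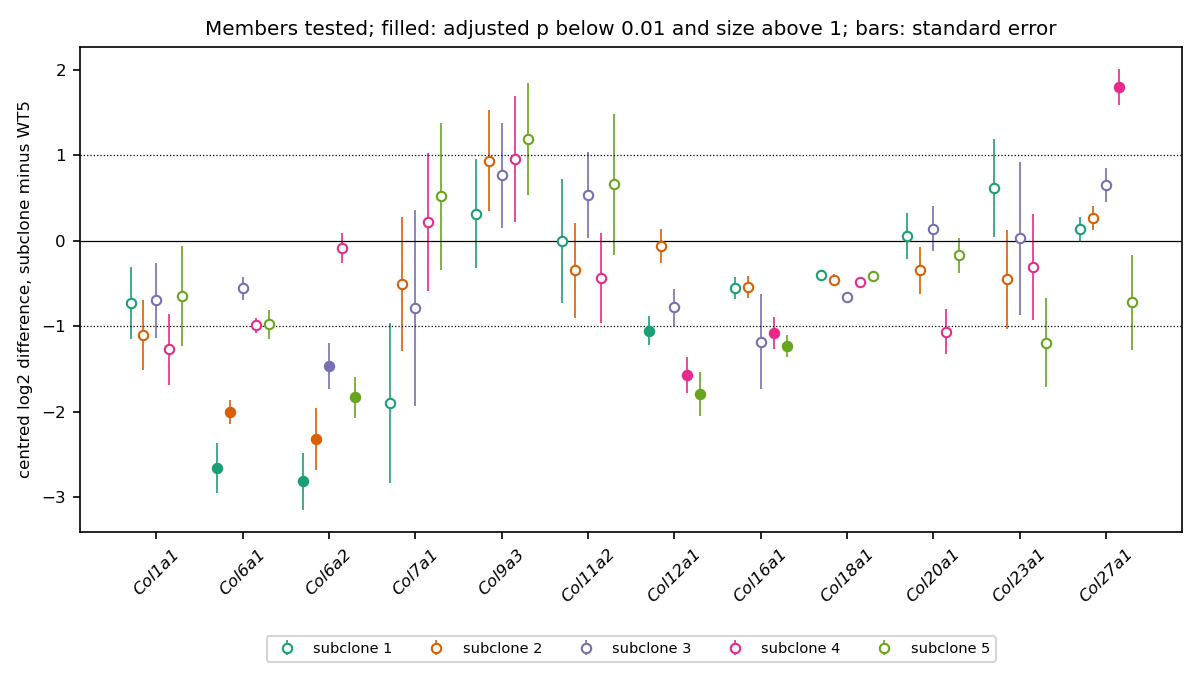
Centred log2 difference of each subclone minus WT5 for the 12 members tested, with standard errors, filled where adjusted p was below 0.01 and the size above 1. Filled points below the line are seen for Col6a1, Col6a2, Col12a1 and Col16a1, and the only filled point above it is Col27a1 in subclone 4 (1.80).

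Differences among the subclones themselves do not involve WT5 or the other table. Over the 14031 genes above 0 in all 20 subclone libraries, limma's F test with a range of the 5 subclone means above 1 called 4 of 12 members, and 5.46% of all genes passed. Col6a2 had a range of 2.72 (highest in subclone 4, lowest in subclone 1, adjusted p = 0.0004026). Col27a1 had a range of 2.52 (subclone 4 to subclone 5, adjusted p = 0.002642), lost without subclone 4 replicate 3 or 4, where adjusted p was 0.01028 and 0.01161. Col6a1 had a range of 2.10 (subclone 3 to subclone 1, adjusted p = 5.63e-06) and Col12a1 a range of 1.72 (subclone 2 to subclone 5, adjusted p = 4.421e-05). The median range was 1.47 over the 12 members and 0.29 over all genes, which were not matched for level. Apart from Col18a1 and Col16a1, the members tested had means below 1 TPM in every subclone. Wide ranges did not always pass the F test, as for Col7a1 (2.42, adjusted p = 0.2115) and Col23a1 (1.80, adjusted p = 0.2398). Col18a1 had a range of 0.25 (adjusted p = 0.01678), so that the member with the highest level was the one whose subclone means lay closest together. Col16a1 had a range of 0.69 (adjusted p = 0.3663), but without subclone 3 replicate 4 the range was 1.24 and passed (adjusted p = 0.0001672). Col8a2 passed only in the test without a filter, with a range of 1.11 (adjusted p = 5.819e-06, 3.89% of all genes passed). By the z-score threshold none of the 12 passed in limma, 0.613% of all genes did, and 5 of the 12 had an unadjusted p below 0.05.

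In the same fit each subclone was set against the mean of the other 4. Subclone 1 was lower for Col6a1 by a difference of -1.53 (adjusted p = 2.723e-05), with 0.919% of all genes called and 0.599% lower. Subclone 2 was higher for Col12a1, by 1.23 (adjusted p = 9.835e-05, 0.934%). Subclone 3 was higher for Col6a1, by 1.10 (adjusted p = 0.0006136, 0.955% called and 0.499% higher). Subclone 4 was higher for Col6a2, by 2.02 (adjusted p = 0.0001201), and for Col27a1, by 1.72 (adjusted p = 0.001072, 1.90%). Subclone 5 was lower for Col27a1, by a difference of -1.44 (adjusted p = 0.005346, 1.39% called and 0.777% lower), which was lost without subclone 5 replicate 1, 3 or 4 (adjusted p of 0.01948 to 0.03431). These calls are against the mean of the other 4, and libraries overlapped with those of single other subclones for Col6a1 in subclones 1 and 3 and for Col27a1 in subclone 5. With 0.1 added to TPM the only calls of subclones 2, 3 and 5 were lost, since the differences were then 0.996 for Col12a1, 0.909 for Col6a1 and -0.73 for Col27a1.

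Collagen chains are hydroxylated and folded in the endoplasmic reticulum, carried out in large vesicles, trimmed of their propeptides and cross-linked outside the cell. Of 56 genes that act in these steps, bind collagen or cleave it, 38 were tested between WT5 and polyclonal WT. Of these, 5 rose and 4 fell, beside 11.3% and 12.0% of all genes, and their median difference was 0.03. Of 3 genes each tested for propeptide removal and for cross-linking, 2 each rose and the remaining 1 each did not pass. Pcolce, an enhancer of the protease that removes the C-terminal propeptide, was at 4.03 to 6.74 TPM in polyclonal WT against 96.79 to 101.38 TPM in WT5 (difference 3.98, SE 0.14, adjusted p = 2.07e-07). That protease, Bmp1, rose as well (1.24, SE 0.06, adjusted p = 7.049e-07). The lysyl oxidase Loxl4, which cross-links collagen and elastin, was at 1.28 to 2.09 TPM against 15.57 to 17.25 TPM (3.14, SE 0.16, adjusted p = 1.073e-06), and Loxl3 rose by 1.27 (adjusted p = 1.478e-05).

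Genes of folding and export went both ways. The prolyl isomerase Fkbp14 rose by 1.17 (adjusted p = 0.0003111). Sec24d, a coat protein of the vesicles that carry procollagen, was at 60.46 to 79.21 TPM in polyclonal WT against 17.68 to 20.17 TPM in WT5 (-2.12, SE 0.09, adjusted p = 5.433e-07), and Tmem38b, an ion channel of the endoplasmic reticulum named after its values were seen, changed by -1.13. The prolyl hydroxylase relative P3h3 changed by -1.62 (adjusted p = 0.003244) and the collagen receptor Ddr2 by -2.85 (adjusted p = 4.969e-05), both at mean levels below 1 TPM in either group. Ddr2 was at 0.05 to 0.1 TPM in polyclonal WT and 0.01 to 0.02 TPM in WT5, next to the lowest value listed, so the size of its change is uncertain. By the z-score threshold Pcolce and Loxl4 passed, 2 of the 38 tested, beside 5.43% of all genes. P4ha3, a prolyl 4-hydroxylase subunit, was also named after its values were seen. It was at 2.79 to 3.33 TPM in polyclonal WT, 0 to 0.08 TPM in WT5 and at most 0.03 TPM in the subclones. Col11a1 was likewise seen almost only in polyclonal WT, and the share of all genes like this was not counted.

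**Figure D5:**
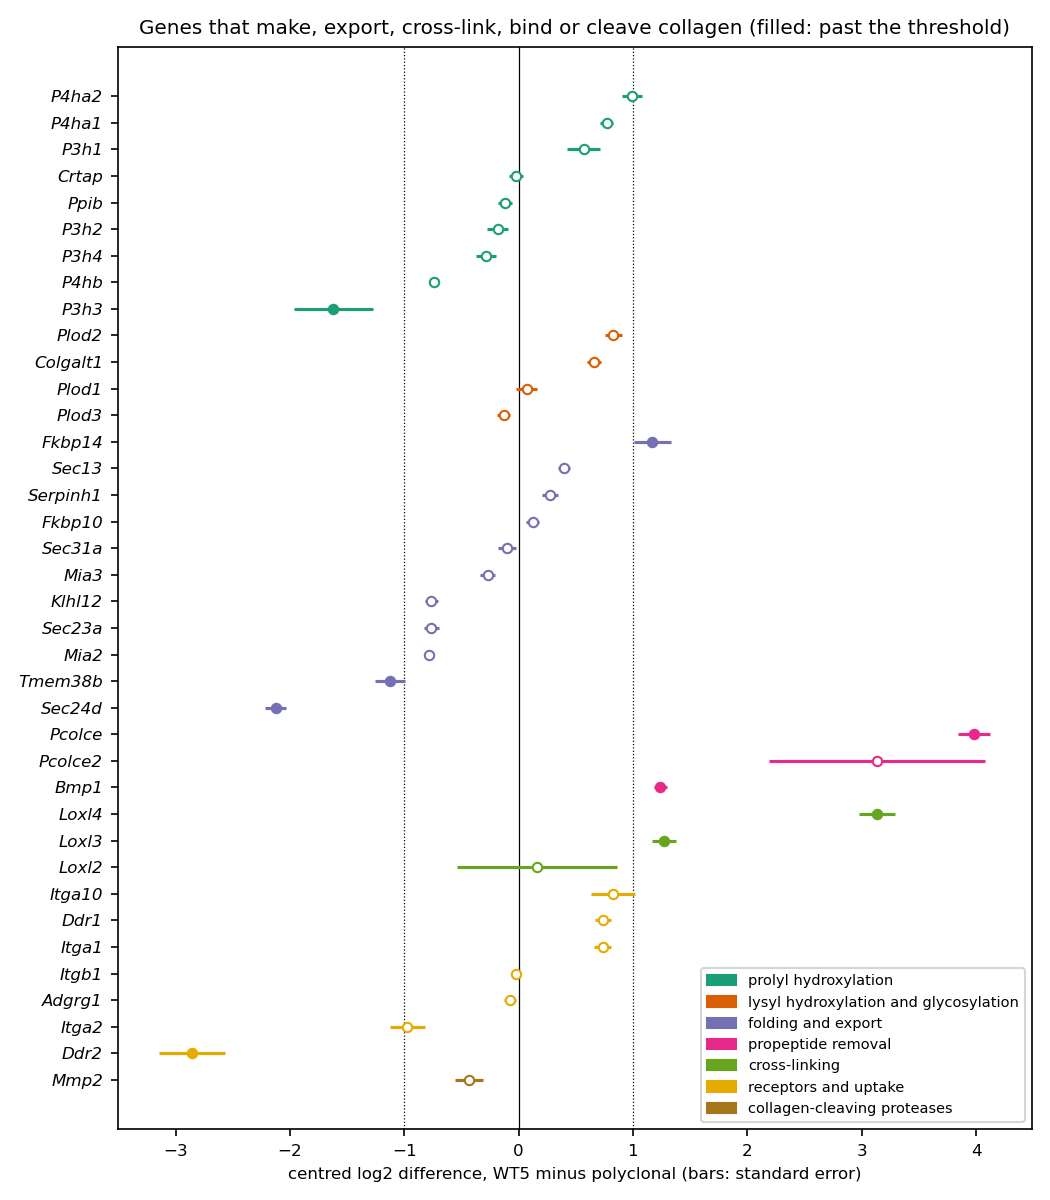
Centred log2 difference of WT5 minus polyclonal WT for the 38 tested genes that make, export, cross-link, bind or cleave collagen, with standard errors, coloured by step and filled where the thresholds were passed. Most genes lie between -1 and 1, and Pcolce (3.98) and Loxl4 (3.14) are the filled points farthest to the right.

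Against WT5, 39 of the 56 genes were tested and between 1 and 3 passed in each subclone, all of them lower than in WT5. Of all genes, 2.68% to 5.32% passed in either direction and 1.42% to 1.75% were called lower. P4ha1, the main catalytic subunit of prolyl 4-hydroxylase, was lower in all 5, with differences of -1.15 to -1.08, at 76.14 to 97.96 TPM in the subclones against 186.38 to 210.42 TPM in WT5, and was named after its values were seen. As with Col18a1, a shared difference cannot be told apart from the separate tables. Larp6, an RNA-binding protein that attaches to the messenger RNA of type I collagen chains, separated the subclones. It was at 1.23 to 1.66 TPM in WT5 and at most 0.04 TPM in polyclonal WT. It was at 0.02 to 0.06 TPM in subclone 1, 1.41 to 2.33 TPM in subclone 2, 1.49 to 1.9 TPM in subclone 3, 0.4 to 0.76 TPM in subclone 4 and 0.58 to 0.71 TPM in subclone 5. The range among the subclone means was 6.02 (adjusted p = 1.711e-10). In the same libraries Col1a1 was at 0.42 to 0.6 TPM in subclone 1, 0.35 to 0.38 TPM in subclone 2 and 0.23 to 1.22 TPM in subclones 3 to 5. Its range among the subclone means was 0.63 and did not pass the F test (adjusted p = 0.3548). A relation of Col1a1 to Larp6 was not tested. The prolyl hydroxylase P3h1 (range 1.31, adjusted p = 3.968e-05), Loxl3 (1.08, adjusted p = 0.008241) and the collagen-binding integrin subunit Itga2 (1.14, adjusted p = 4.29e-06, named after its values were seen) also passed among the subclones. With Larp6 this made 4 of the 39 tested, beside 5.46% of all genes.

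Markers of cell types were read in the same libraries. Of 12 genes of collecting duct epithelium, 11 had a mean of at least 1 TPM in polyclonal WT and 8 in each other group, with sums of 1790.93 to 2065.57 TPM in polyclonal WT, 2904.28 to 3009.71 TPM in WT5 and 1839.01 to 2327.12 TPM in the subclones. The higher epithelial sum in WT5 came mostly from Krt8, at means of 359.9 TPM in polyclonal WT against 1005 TPM in WT5, and Krt18, at 637 against 957 TPM. Means of Epcam (507 and 603 TPM), Cdh16 (30.9 and 89.2 TPM) and Tfcp2l1 (8.04 and 10.2 TPM) were higher in WT5 as well. Those of Cdh1 (145 and 97.6 TPM), Krt7 (199 and 128 TPM), Hoxb7 (68.0 and 55.3 TPM), Avpr2 (10.6 and 0.06 TPM), Gata3 (4.08 and 0.04 TPM) and Scnn1a (1.1 and 0.57 TPM) were lower in WT5. Aqp2, the water channel that defines principal cells, was listed at 0 in every library. The 14 markers of fibroblasts and mesenchyme summed to 7.04 to 8.64 TPM in polyclonal WT, 46.18 to 55.03 TPM in WT5 and 24.96 to 42.76 TPM in the subclones. By group means Col18a1 had this order, and so did the epithelial marker Krt8 and collagen-processing genes such as P4ha2 and Plod2. Lum, Prrx1 and Tcf21 were listed at 0 in every library and Pdgfra was at most 0.01 TPM, whereas Twist2 (mean 0.69 TPM in polyclonal WT, 30.1 TPM in WT5) and Vim (1.67 and 16.8 TPM) made up most of the sum in WT5. Other genes of the fibroblast and mesenchyme list had lower means in WT5 than in polyclonal WT, with Acta2 at 1.14 against 3.14 TPM, Postn at 0.05 against 1.14 TPM and Dcn at 0.045 against 0.68 TPM. The 5 endothelial markers summed to at most 0.29 TPM, and the 4 leukocyte markers to 1.52 to 4.68 TPM, nearly all of it Cd68. The part of these markers in the collagen differences was not tested.

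Members outside the named ones stayed low. Col7a1, Col9a3 and Col20a1 were above 0 in each WT5 and subclone library, where they ranged from 0.02 to 1.02, from 0.09 to 1.21 and from 0.09 to 0.46 TPM, and none passed in a comparison above. Col23a1, a transmembrane collagen, was also tested against WT5 and among the subclones at 0.01 to 0.1 TPM and did not pass. Libraries of 1 group differed as much as groups did for Col7a1, which was at 1.02, 0.08, 0.35 and 0.24 TPM in WT5. Stretches of 50 bases shared with other genes were found for 6 members, Col20a1, Col22a1, Col3a1, Col6a5, Col6a6 and Col8a1, whose low values are therefore less certain.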

How the data were processed

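RNA of mIMCD-3 cells was sequenced in 28 libraries, 4 in each of 7 groups. The authors deposited TPM values, which come from reads aligned to GRCm38 with STAR 2.7.3a and quantified with RSEM 1.3.1. They carry 2 decimals and the lowest above 0 is 0.01. TPM keeps no read total, so depth is unknown and no counting error is given. Polyclonal WT and WT5 are in one matrix and the subclones in another, which were joined by gene identifier.

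log2(TPM) was centred on the median of each library, or z-score transformed within it, over genes above 0 in all libraries compared. limma 3.58.1 (R 4.3.3) was used with Benjamini-Hochberg adjustment over all genes tested, after a test on simulated data. Named were members called by either threshold in any comparison or with a group mean of at least 1 TPM, and at most 10 called genes of collagen processing. Members and lists were chosen with earlier results of these data known. Alternatives were an unequal-variance test, pseudocounts of 0.1 and 1, other filters and thresholds, no centring, upper-quartile scaling, all 24 libraries in one fit, a block for the replicate number and each library left out in turn. Coordinates and exons are from GENCODE M21, and motifs were searched in Python 3.11.15.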

Additional observations from a re-analysis of the deposited data

Results flagged for a closer look

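In 13 of the 88 combinations of a member and a group that could be looked at (14 members with a group mean of at least 0.1 TPM), 1 of the 4 libraries lay far from the other 3 by Dixon's criterion. Chance alone flags about 1 in 20 such groups, and many of these values lie within a few steps of the lowest value listed. Col16a1 was at 6.85 TPM in subclone 3 replicate 4, against 0.8 to 1.64 TPM in the other 3, and at 1.3 TPM in subclone 5 replicate 1, against 1.92 to 1.95 TPM. Col1a1 was at 2.06 TPM in WT5 replicate 4, against 0.57 to 0.61 TPM. Col9a3 was at 1.21 TPM in subclone 5 replicate 2, against 0.26 to 0.39 TPM, and at 0.03 TPM in polyclonal replicate 1, where the other 3 were listed at 0. Col11a1 was at 4.34 TPM in polyclonal replicate 3, against 3.59 to 3.69 TPM, and single libraries held 0.05 TPM (subclone 4 replicate 2) and 0.02 TPM (subclone 5 replicate 3) where the others were listed at 0. Col11a2 was at 0.56 TPM in polyclonal replicate 3, against 0.06 TPM, at 0.23 TPM in subclone 2 replicate 1, against 0.07 to 0.08 TPM, and at 0.1 TPM in subclone 3 replicate 1, against 0.2 to 0.22 TPM. Col20a1 was at 0.32 TPM in subclone 5 replicate 2, against 0.2 to 0.21 TPM, and Col8a2 at 0.18 TPM in subclone 2 replicate 1, against 0.07 to 0.08 TPM. Subclone 5 replicate 2 was thus the outlying library for both Col9a3 and Col20a1, and polyclonal replicate 3 for both Col11a1 and Col11a2.

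The subclones differed from each other by limma's F test for 4 members, with a range of the 5 means of 2.72 for Col6a2, 2.52 for Col27a1, 2.1 for Col6a1 and 1.72 for Col12a1 on the centred log2 scale.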

How the results depend on the processing

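Counts of members called were 2 (z-score) and 7 (log2) for WT5 against polyclonal WT, 3, 2, 1, 3 and 3 for subclones 1 to 5 against WT5, 4 among the subclones and 1, 1, 1, 2 and 1 for each subclone against the other 4. Adding 1 to TPM left 0 and 3 for WT5 against polyclonal WT and 0 in every comparison of subclones, and a mean of at least 1 TPM left 3 by log2 for WT5 against polyclonal WT, 0, 0, 0, 1 and 1 against WT5, and 0 among the subclones and against the other 4. Both settings leave little of members below 1 TPM, on which most calls rest. Adding 0.1 gave 0 z-score calls, and 0 calls for subclones 2, 3 and 5 against the other 4. Without a filter there was 1 z-score call, 2 calls for subclone 3 against WT5, and 0 for subclones 2, 3 and 5 against the other 4. The unequal-variance test gave 0, 1 and 0 calls for subclones 1, 2 and 3 against WT5, where only Col6a1 in subclone 2 remained. The z-score threshold gave 0 for each subclone against WT5 and 0 among the subclones. An adjusted p below 0.05 gave 5 for subclone 4 against WT5 and 2 for subclone 1 against the other 4. No size threshold gave 7 z-score calls, 2, 5 and 5 for subclones 3, 4 and 5 against WT5, and 2, 4 and 2 for subclones 3, 4 and 5 against the other 4. Without predicted genes, subclone 1 against the other 4 had 2, and without centring, which moves the median of all genes by 0.24 in WT5 against polyclonal WT, subclone 4 against WT5 had 5. In each case the cause was not tested beyond what the setting removes. For most of these settings, and for those below, the share of all genes called is not given. Looser thresholds can only add calls among all genes too, so these counts show how member calls move and not whether they exceed that share.

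Replicate numbers were not taken as pairs, since same-numbered libraries deviated together only with r between -0.31 and 0.14. With a replicate block, subclones 1, 2 and 3 had 1, 1 and 0 calls against WT5 and subclone 5 had 0 against the other 4. It ended the calls of Col6a2 in subclones 1, 2 and 3 (adjusted p of 0.01061, 0.01173 and 0.0275) and of Col12a1 in subclones 1 and 5 (0.01892 and 0.01485) against WT5, and of Col27a1 in subclone 5 against the other 4 (0.01078). No pair of groups had every library correlating best with its own number.

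Leaving out 1 library at a time gave 0 to 2 z-score calls and 7 to 8 by log2 for WT5 against polyclonal WT, 2 to 3, 2 to 2, 0 to 2, 2 to 4 and 3 to 4 for subclones 1 to 5 against WT5, 3 to 5 among the subclones, and 1 to 2, 1 to 1, 1 to 2, 2 to 4 and 0 to 2 for subclones 1 to 5 against the other 4. Subclone 3 replicate 3, which is listed at 0 for Col8a2, gave 2 calls for subclone 3 against WT5 and 2, 2, 4 and 2 for subclones 1, 3, 4 and 5 against the other 4 when left out, as more members could then be tested. Without subclone 1 replicate 2, subclone 2 replicate 2, subclone 3 replicate 2 or subclone 5 replicate 2, subclone 1 had 2 calls against the other 4. Col11a2, which was not called, changed sign between WT5 and polyclonal WT, at -0.22 with 0.1 added (also without a filter), -0.30 with 1 added, -0.046 without predicted genes, and -0.32 to 0.797 when 1 library was left out, below 0 in 6 of these 8 fits. Members at hundredths of a TPM move in steps of the last decimal, which limits what these values can show.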
